A study of Mus musculus with 6 samples.

Results

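The families described here are 4 groups of liver enzymes that make foreign and internal compounds easier to excrete. They are the UDP-glucuronosyltransferases (UGT), the cytosolic sulfotransferases (SULT), the carboxylesterases (CES) and the aldehyde dehydrogenases (ALDH). Members were chosen by name: every array feature annotated to exactly 1 gene symbol that starts with Ugt1, Ugt2, Ugt3, Sult, Ces and a digit, or Aldh and a digit. This gave 61 genes on 84 features, of 19087 genes with 1 symbol and 41230 features with a value. The UGT group held 13 genes on 18 features, the SULT group 15 genes on 19 features, the CES group 12 genes on 17 features and the ALDH group 21 genes on 30 features. No low-value filter was applied, so all 61 genes were tested.

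The cells were MMH, a mouse line whose label keywords read Met murine hepatocytes and whose sample titles place it at embryonic day 14. MMH cells with a vector that expresses Prox1, a homeobox transcription factor, were compared with MMH cells holding the empty vector pCDNA3.1. Both RNAs met on each of 6 two-colour arrays, with Prox1 RNA in Cy5 on replicates 1 to 3 and in Cy3 on replicates 4 to 6. The labels do not say whether the arrays came from separate cultures, whether either line was 1 clone, or how long Prox1 had been expressed, so all p-values measure the spread between these arrays, which may be technical. The labels give replicate 4 another RNA isolation reagent than the other arrays, yet all 3 columns of that dye orientation were the same in every feature and were counted once. This left 4 distinct profiles, called here the Cy5 arrays (3, Prox1 in Cy5) and the Cy3 profile (1, Prox1 in Cy3).

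Each value is a score, the signed ratio of both RNAs scaled to a standard deviation (SD) of 1 over the array. A score of −2 therefore lies 2 SD of all features below 0, and no fold change can be given. Positive scores likely mean higher with Prox1. That direction rests on 1 Prox1 feature, which had scores of 5.44, 5.22 and 5.17 on the Cy5 arrays and 6.6 in the Cy3 profile and ranked number 4 of 41230 features from the highest. The other Prox1 features averaged 0.41 and 0.04 on the Cy5 arrays but stood at −0.29 and −0.38 in the Cy3 profile. Their effects were 0.09 and −0.16, so they do not bear on the direction. The part of the transcript that each feature reads was not analysed here. If the direction were the opposite one, every fall below would be a rise. The 3 Cy5 arrays correlated at 0.915 to 0.930 with each other and at 0.397 to 0.444 with the Cy3 profile, over features, which are not independent replicates.

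UGT enzymes, held in the membrane of the endoplasmic reticulum, join glucuronic acid from UDP-glucuronate to phenols, steroids, bile acids and bilirubin. SULT enzymes work in the cytosol and move a sulfonate group from the donor PAPS to hydroxyl or amino groups. CES enzymes cut ester and amide bonds of lipids and drugs, mostly inside the endoplasmic reticulum, and ALDH enzymes oxidise aldehydes to carboxylic acids, among them retinaldehyde, acetaldehyde and aldehydes from lipid peroxidation. In the liver the first 3 families are best known from drug and steroid clearance, and the ALDH family also serves alcohol, amino acid and vitamin A metabolism.

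Members of all 4 families fell with Prox1 when the 4 profiles were tested with orientation as a block, and none passed when each orientation was averaged to 1 replicate. The effect of a gene is its mean score in a limma model that treats dye orientation as a random block, with a threshold of 0.05 on the p-value adjusted by the Benjamini-Hochberg method over 28617 features. Of the 61 genes, 15 fell, 2 rose and 44 did not pass. The share that fell was 24.6% of the 61 genes, and the share that rose was 3.28%. Among all features tested 8.41% passed: 5.03% fell and 3.38% rose. These include features without a single symbol. Among the 19087 genes with 1 symbol, averaged as the members were, 6.11% fell and 3.88% rose. With the orientations as 2 replicates all 17 calls were lost (limma, adjusted p = 0.0903 to 0.266). All 15 genes that fell had negative scores in all 4 profiles, as did 27 of the 61 members and 19.5% of all features. The calls came from the same 4 profiles, so the shared sign of the 15 genes is not separate support for them.

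The share of members that fell was 30.8% of UGT, 26.7% of SULT, 25% of CES and 19.0% of ALDH genes. The UGT group had 4 falls and 9 genes that did not pass, the SULT group 4 falls and 11, and the CES group 3 falls and 9. The ALDH group had 4 falls, 2 rises and 15 genes that did not pass. The median effect was −0.16 over UGT genes, −0.0074 over SULT genes, −0.24 over CES genes and −0.50 over ALDH genes, against 0.04 over all features tested. Effects below −2 were found for 3 UGT, 3 SULT, 3 CES and 2 ALDH genes, 11 of 61 in all. The shares were 2.2% of all features and 2.59% of genes with 1 symbol. In the UGT, SULT and CES groups a few deep falls stood beside genes near 0: 9 of 13, 8 of 15 and 8 of 12 genes lay between −0.5 and 0.5. In the ALDH group 6 of 21 genes lay in that range, against 70.3% of all features. These counts describe the families, and no test between families was made.

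**Figure D1:**
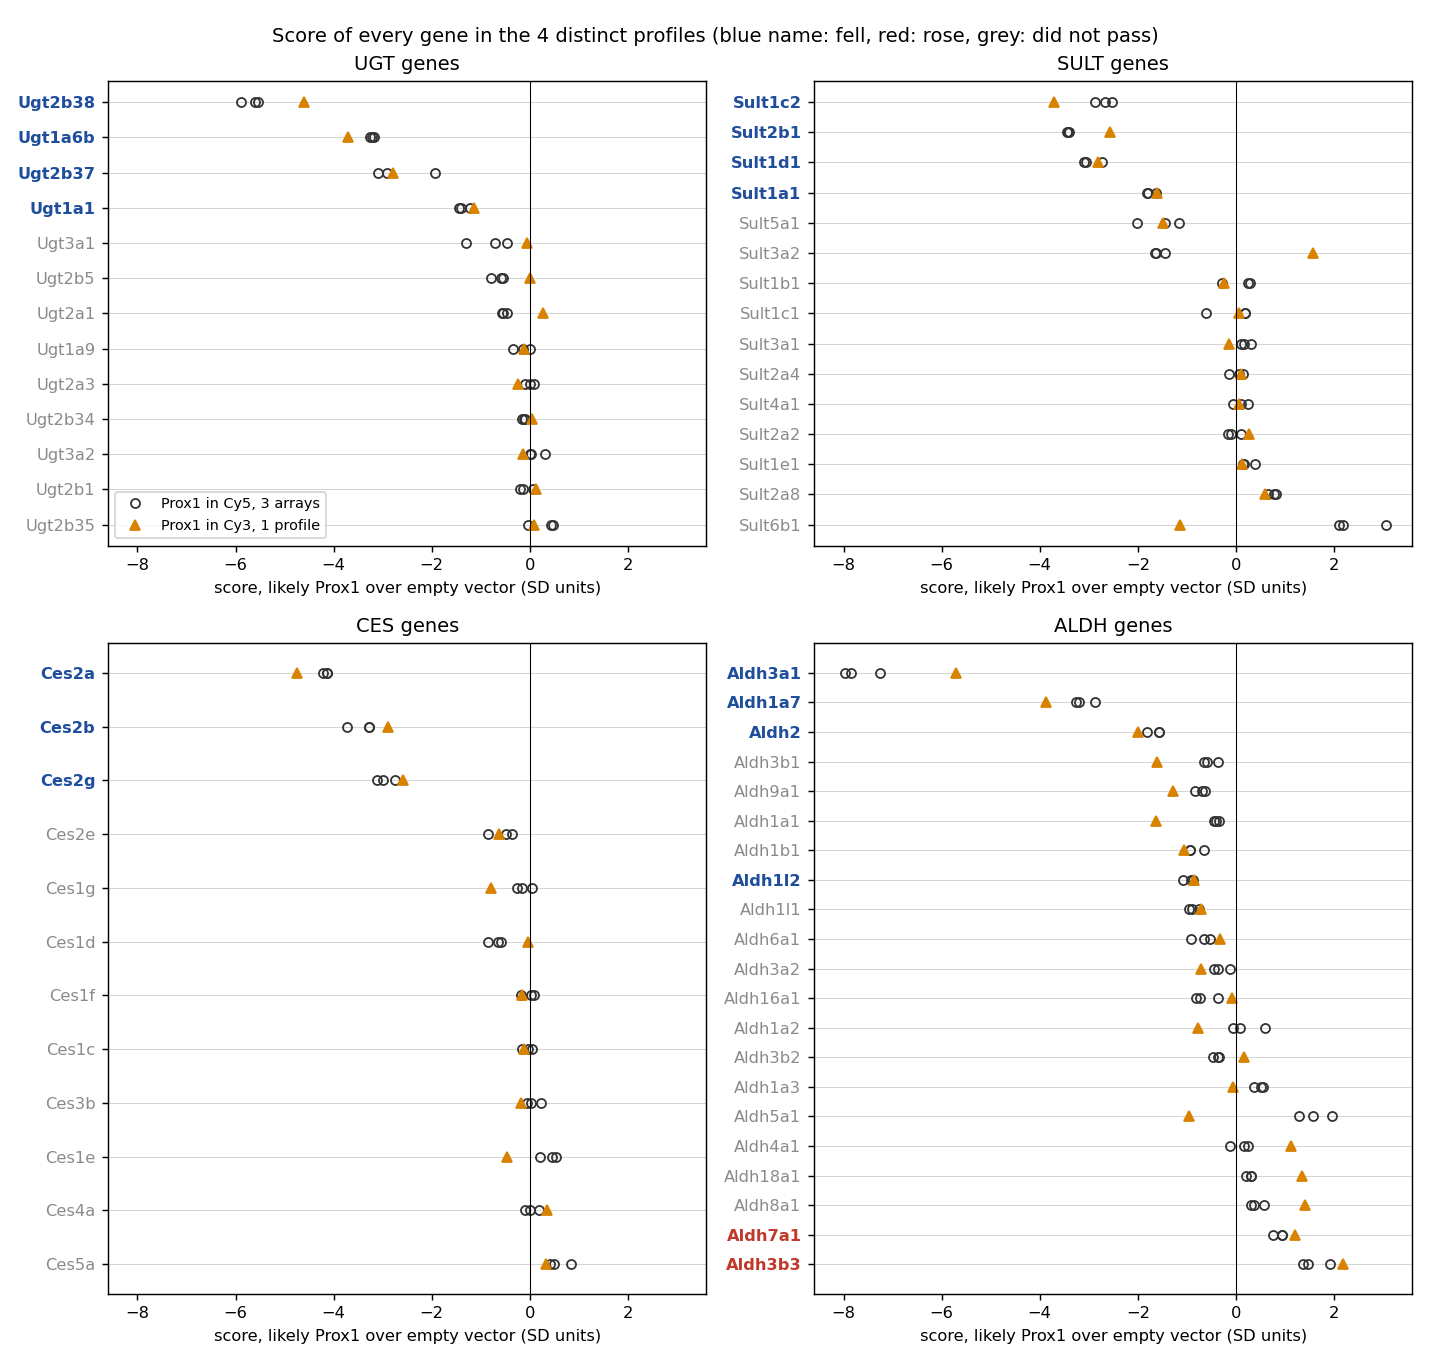
Score of each of the 61 genes in the 4 distinct profiles, 1 panel per family, in SD units on the horizontal axis. Open circles are the 3 arrays with Prox1 RNA in Cy5, filled triangles the profile with it in Cy3, and names in blue, red and grey mark genes that fell, rose or did not pass. The genes that fell have all 4 marks left of 0 and head each panel, except Aldh1l2, which lies among genes that did not pass, and Sult3a2, Sult6b1 and Aldh5a1 have marks far apart on both sides of 0.

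**Figure D2:**
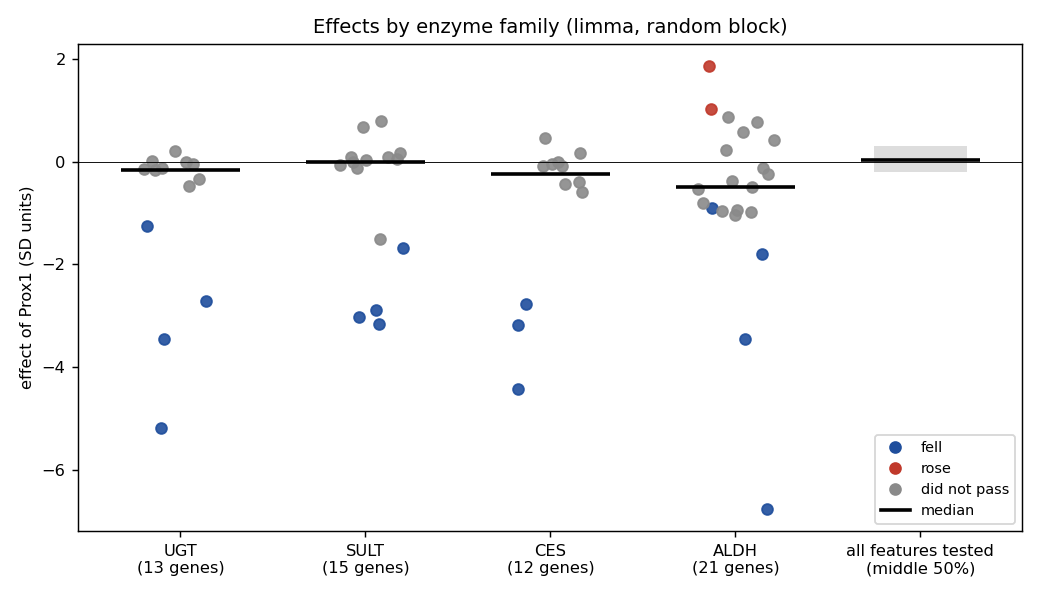
Effect of each gene by family in SD units (1 point per gene, spread sideways for legibility), with the family median as a black line and the middle 50% of all features tested as a grey box. The UGT, SULT and CES groups split into a few deep falls and a cluster near 0, and the ALDH points spread more evenly from −6.77 to 1.86.

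The deepest UGT fall was that of Ugt2b38, a member of the Ugt2b group, whose enzymes act on steroids and other hydroxylated lipids. Its scores were −5.61, −5.90 and −5.55 on the Cy5 arrays and −4.60 in the Cy3 profile. All 4 profiles lay far below 0, and the effect of −5.18 ± 0.33 (SE; limma, adjusted p = 0.000931) stood at rank 46 from the lowest of 28617 features. Ugt2b37, which lies in the same cluster on chromosome 5 with Ugt2a3 between them, had mean scores of −2.92, −1.93 and −3.09 on the Cy5 arrays and −2.78 in the Cy3 profile. Its effect was −2.71 ± 0.56 (SE; limma, adjusted p = 0.0386), but it rested on 1 of its 2 features: one fell to −4.93 and the other, at −0.49, did not pass. The fall of Ugt2b37 was lost without Cy5 replicate 1 (limma, adjusted p = 0.0870) and without replicate 3 (0.0753).

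Ugt2b5, the neighbour of Ugt2b37, had scores of −0.79, −0.56 and −0.60 on the Cy5 arrays and 0.01 in the Cy3 profile, and did not pass (effect −0.34 ± 0.25, SE). The other Ugt2b genes measured, Ugt2b34, Ugt2b1 and Ugt2b35, had effects of −0.05, 0.0085 and 0.20. Ugt2b35 was the highest of all UGT genes, with scores of 0.47, −0.03 and 0.44 on the Cy5 arrays and 0.09 in the Cy3 profile. Within the Ugt2b group 2 of 6 genes thus fell, and the effects of the 6 genes spanned −5.18 to 0.20.

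Promoter windows were available from RefSeq for 48 of the 61 genes, each running from 250 bases before to 50 bases after the annotated start (build GRCm38.p6). The promoters of Ugt2b38, Ugt2b37 and Ugt2b5 are shown because the sequences are close to each other while the effects of the genes are not. They lie on the minus strand at chr5:87424154-87424453, chr5:87254739-87255038 and chr5:87140291-87140590 and are printed 5′ to 3′ in the direction of transcription. Capitals mark matches to the nuclear receptor half-site AGGTCA.
Ugt2b38: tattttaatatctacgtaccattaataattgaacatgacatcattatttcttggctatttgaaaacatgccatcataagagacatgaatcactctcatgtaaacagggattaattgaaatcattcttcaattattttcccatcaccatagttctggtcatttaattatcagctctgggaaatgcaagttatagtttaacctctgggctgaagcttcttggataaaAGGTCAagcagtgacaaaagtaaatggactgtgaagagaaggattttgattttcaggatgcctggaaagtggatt
Ugt2b37: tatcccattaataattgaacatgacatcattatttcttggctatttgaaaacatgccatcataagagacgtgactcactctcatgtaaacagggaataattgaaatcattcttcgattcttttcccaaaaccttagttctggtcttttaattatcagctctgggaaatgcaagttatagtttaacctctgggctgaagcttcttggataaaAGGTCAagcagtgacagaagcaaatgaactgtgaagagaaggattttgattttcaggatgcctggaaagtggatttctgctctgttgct
Ugt2b5: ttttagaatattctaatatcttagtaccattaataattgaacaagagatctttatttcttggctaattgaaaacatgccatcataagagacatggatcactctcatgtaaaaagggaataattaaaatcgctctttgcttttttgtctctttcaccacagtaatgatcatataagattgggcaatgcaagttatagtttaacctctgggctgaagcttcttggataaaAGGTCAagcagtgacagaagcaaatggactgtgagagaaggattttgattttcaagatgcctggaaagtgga
Each of the 3 windows holds 1 AGGTCA match, which begins 25, 39 and 22 bases before the start of Ugt2b38, Ugt2b37 and Ugt2b5. After global alignment the windows of Ugt2b38 and Ugt2b37 were identical at 273 of 286 positions (95.5%), those of Ugt2b38 and Ugt2b5 at 261 of 290 (90.0%), and those of Ugt2b37 and Ugt2b5 at 247 of 276 (89.5%). Among 16 pairs of the shown windows from different families, identity ranged from 57.0% to 69.5%. The genes themselves are close copies, so a feature annotated to one may also have bound transcripts of another. Probe sequences were not analysed here, and their part in the pattern was not tested.

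The Ugt1 genes share their downstream exons and differ in the first exon, so only features in the first exon tell them apart. Which exon each feature reads was not analysed here, so the values of these genes may not be separate. Ugt1a6b, a copy of the gene for the phenol-conjugating enzyme, had mean scores of −3.18, −3.25 and −3.22 on the Cy5 arrays and −3.71 in the Cy3 profile. Its effect was −3.44 ± 0.21 (SE; limma, adjusted p = 0.000924), and both of its features passed singly, at −2.54 and −4.35. Ugt1a1, which conjugates bilirubin, had −1.45, −1.23 and −1.41 on the Cy5 arrays and −1.14 in the Cy3 profile. The Cy3 profile lay just above the range of the Cy5 arrays, and the effect was −1.26 ± 0.21 (SE; limma, adjusted p = 0.0211), a call lost without Cy5 replicate 1 (limma, adjusted p = 0.0578) and without replicate 3 (0.0631). Ugt1a9 did not pass, at −0.14 ± 0.24 (SE).

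The remaining UGT genes did not pass. Ugt2a1 had an effect of −0.16 as a mean of 3 features that disagreed: one fell to −1.85, one stood at −0.13 and one at 1.503, the last 2 without passing. Ugt2a3 had an effect of −0.11. Ugt3a1 and Ugt3a2, whose human counterparts use other sugar donors, had effects of −0.47 and −0.013.

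Among the SULT genes, 3 fell with effects near −3. Sult1c2 had scores of −2.66, −2.53 and −2.88 on the Cy5 arrays and −3.72 in the Cy3 profile, an effect of −3.17 ± 0.31 (SE; limma, adjusted p = 0.00360). Sult2b1, which sulfonates cholesterol and pregnenolone, had −3.41, −3.41 and −3.45 on the Cy5 arrays and −2.56 in the Cy3 profile, an effect of −3.02 ± 0.25 (SE; limma, adjusted p = 0.00219). The orientations pulled these genes apart in opposite ways, Sult1c2 lower in the Cy3 profile and Sult2b1 lower on the Cy5 arrays, and neither set of scores came near 0. Sult1d1, known in the mouse for sulfonating catecholamines, had −2.74, −3.06 and −3.10 on the Cy5 arrays and −2.81 in the Cy3 profile, with overlapping orientations and an effect of −2.89 ± 0.25 (SE; limma, adjusted p = 0.00244).

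Sult1a1, the phenol sulfotransferase, fell less. Its scores were −1.62, −1.79 and −1.81 on the Cy5 arrays and −1.62 in the Cy3 profile, and its effect was −1.68 ± 0.20 (SE; limma, adjusted p = 0.00713). Sult5a1 had −1.44, −2.01 and −1.15 on the Cy5 arrays and −1.48 in the Cy3 profile, all below 0, but its effect of −1.51 ± 0.42 (SE) did not pass (limma, adjusted p = 0.0890). The highest SULT effect, 0.79 ± 0.87 (SE) for Sult6b1, was a mean of contrary values: 2.18, 2.09 and 3.06 on the Cy5 arrays and −1.13 in the Cy3 profile. Its limma adjusted p was 0.810.

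Sult1e1, the estrogen sulfotransferase, did not pass, with scores of 0.16, 0.40 and 0.14 on the Cy5 arrays and 0.12 in the Cy3 profile. Sult2a2, Sult2a4 and Sult2a8, of the Sult2a group that acts on hydroxysteroids, did not pass either, with effects of 0.09, 0.05 and 0.68. The other SULT genes that did not pass were Sult3a2 at −0.12, Sult1b1 at −0.07, Sult1c1 at −0.0074, Sult3a1 at 0.04 and the brain member Sult4a1 at 0.08. Of the 11 SULT genes that did not pass, all but Sult5a1, Sult2a8 and Sult6b1 had effects between −0.12 and 0.18.

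Sult1d1 and Sult1e1 follow each other on chromosome 5, with Sult1b1 on the far side of Sult1d1. The promoters of Sult1d1 and Sult1e1 are shown as a neighbouring pair of which 1 gene fell. They lie on the minus strand at chr5:87568957-87569256 and chr5:87591562-87591861 (GRCm38.p6), and capitals mark every match, on either strand, to any of 5 motifs searched, which were the TATA box TATAAA, the half-site GTTAAT of HNF1, AGGTCA, the core GCGTG of the xenobiotic response element and the core TGACNNNGC of the antioxidant response element.
Sult1d1: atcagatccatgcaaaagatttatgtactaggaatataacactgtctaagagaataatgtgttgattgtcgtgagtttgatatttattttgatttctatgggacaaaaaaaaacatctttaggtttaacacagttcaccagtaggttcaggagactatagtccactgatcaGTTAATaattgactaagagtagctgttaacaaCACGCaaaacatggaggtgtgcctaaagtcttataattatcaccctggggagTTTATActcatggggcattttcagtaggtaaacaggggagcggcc
Sult1e1: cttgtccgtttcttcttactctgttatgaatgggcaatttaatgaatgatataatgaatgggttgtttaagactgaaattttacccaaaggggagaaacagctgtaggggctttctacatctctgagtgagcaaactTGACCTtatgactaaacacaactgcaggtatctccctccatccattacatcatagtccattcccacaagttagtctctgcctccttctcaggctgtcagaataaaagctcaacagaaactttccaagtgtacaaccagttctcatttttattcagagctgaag
The Sult1d1 window holds GTTAAT beginning 79 bases before the start, GCGTG on the opposite strand at 47 bases before it, and TATAAA on the opposite strand past the start. The Sult1e1 window holds AGGTCA on the opposite strand, 113 bases before the start. The 2 windows were identical at 158 of 259 aligned positions (61.0%), within the range of windows from different families.

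The CES falls were all in the Ces2 group, whose enzymes cut esters with a small acyl part and are abundant in liver and intestine. Ces2a had scores of −4.13, −4.21 and −4.13 on the Cy5 arrays and −4.75 in the Cy3 profile. Its effect of −4.43 ± 0.22 (SE; limma, adjusted p = 0.000602) had the smallest adjusted p of the 61 genes. Ces2b had mean scores of −3.29, −3.73 and −3.29 on the Cy5 arrays and −2.90 in the Cy3 profile, an effect of −3.19 ± 0.31 (SE; limma, adjusted p = 0.00322), and both of its features passed singly, at −4.44 and −1.93. Ces2g had −3.0, −3.12 and −2.75 on the Cy5 arrays and −2.58 in the Cy3 profile, an effect of −2.78 ± 0.26 (SE; limma, adjusted p = 0.00289). In all 3 genes the 4 profiles lay within 1 SD unit of each other and below −2.5.

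Ces2e, which lies between Ces2b and Ces2g, did not pass: its scores were −0.85, −0.48 and −0.37 on the Cy5 arrays and −0.62 in the Cy3 profile. The median effect was −2.98 over 4 Ces2 genes and −0.08 over 5 Ces1 genes, of which 0 passed by limma. At an unadjusted p under 0.05 the Ces1 count was also 0 of 5, and with the fixed dye term described below 2 fell. Among all features 8.41% passed, and 45% with that term. Ces1d, a hydrolase of the endoplasmic reticulum linked to triglyceride mobilisation in mouse liver, had −0.60, −0.64 and −0.86 on the Cy5 arrays and −0.05 in the Cy3 profile, an effect of −0.40 ± 0.25 (SE; limma, adjusted p = 0.522). Ces1c, the carboxylesterase of mouse plasma, had an effect of −0.08, and Ces1e, Ces1f and Ces1g had effects of −0.0047, −0.08 and −0.44. Ces5a was the highest CES gene, with scores of 0.42, 0.48 and 0.84 on the Cy5 arrays and 0.34 in the Cy3 profile and an effect of 0.47 ± 0.27 (SE; limma, adjusted p = 0.454). Ces3b and Ces4a had effects of −0.05 and 0.17.

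**Figure D3:**
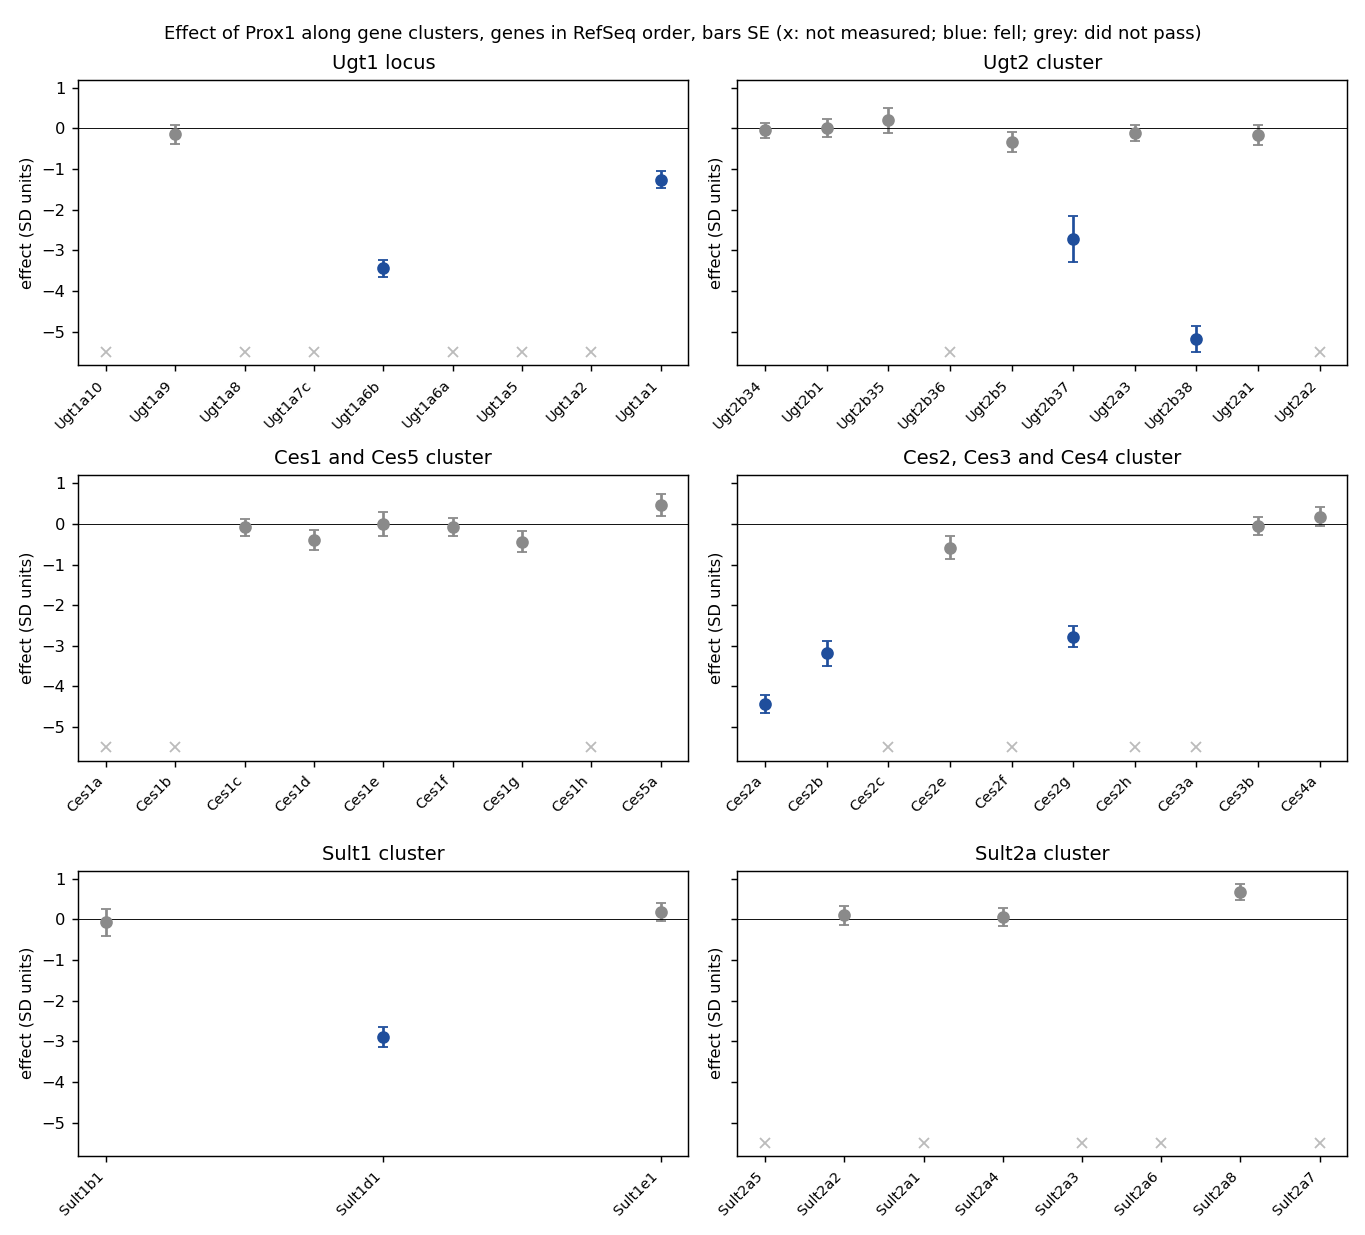
Effect of Prox1 with its SE (SD units, vertical axis) for genes of 6 chromosomal clusters, in the order in which RefSeq lists them. Blue points fell, grey points did not pass, and a cross at the bottom marks a gene of the cluster that had no feature with its symbol alone. The Ugt1, Ugt2, Ces2 and Sult1 clusters hold both falls and genes near 0, and no point in the Ces1 and Ces5 cluster or the Sult2a cluster is blue.

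Position along the chromosome did not sort the falls into whole clusters. With neighbours defined as family members separated by at most 5 other coding genes in RefSeq, the Ugt2 cluster on chromosome 5 held 10 genes, of which 8 were measured and 2 fell. The Ces1 and Ces5 cluster on chromosome 8 held 9 genes, 6 measured and 0 that passed in limma (0 at an unadjusted p under 0.05; 2 falls and 1 rise with a fixed dye term), and the Ces2, Ces3 and Ces4 cluster on the same chromosome held 10 genes, 6 measured and 3 that fell. The Sult2a cluster on chromosome 7 held 8 genes, 3 measured and 0 that passed in limma (1 at an unadjusted p under 0.05 and 1 rise with a fixed dye term). With 8.41% of all features passing, a count of 0 among so few genes is near the share over all features. Of the 2 genes in each pair, 1 fell in the Sult1c, Aldh1a1 with Aldh1a7, and Aldh3a1 with Aldh3a2 clusters.

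Aldh3a1, an aldehyde dehydrogenase known from the cornea and as a target of the dioxin receptor in liver cells, had the lowest effect of the 61 genes. Its scores were −7.25, −7.84 and −7.97 on the Cy5 arrays and −5.70 in the Cy3 profile. The effect was −6.77 ± 0.55 (SE; limma, adjusted p = 0.00199), rank 17 from the lowest of 28617 features. Its neighbour Aldh3a2, which oxidises fatty aldehydes, had −0.36, −0.12 and −0.44 on the Cy5 arrays and −0.71 in the Cy3 profile, an effect of −0.50 ± 0.24 (SE) that did not pass.

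The Aldh1a genes include those that make retinoic acid from retinaldehyde. Aldh1a7, a rodent relative of Aldh1a1, had scores of −3.25, −2.88 and −3.20 on the Cy5 arrays and −3.86 in the Cy3 profile, an effect of −3.46 ± 0.29 (SE; limma, adjusted p = 0.00231). Aldh1a1 had −0.41, −0.34 and −0.44 on the Cy5 arrays and −1.62 in the Cy3 profile. All its scores were below 0, the Cy3 profile was much the lowest, and the effect of −0.96 ± 0.31 (SE) did not pass (limma, adjusted p = 0.137). Aldh1a2 had 0.60, 0.09 and −0.06 on the Cy5 arrays and −0.77 in the Cy3 profile, and Aldh1a3 had mean scores of 0.37, 0.51 and 0.56 on the Cy5 arrays and −0.07 in the Cy3 profile. Neither passed (limma, adjusted p = 0.919 and 0.776), and each had scores on both sides of 0.

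The promoters of Aldh1a7 and Aldh1a1, neighbours on chromosome 19, are shown as the second such pair. Aldh1a7 lies on the minus strand at chr19:20727507-20727806 and Aldh1a1 on the plus strand at chr19:20492333-20492632 (GRCm38.p6), and capitals mark matches to the same motifs.
Aldh1a7: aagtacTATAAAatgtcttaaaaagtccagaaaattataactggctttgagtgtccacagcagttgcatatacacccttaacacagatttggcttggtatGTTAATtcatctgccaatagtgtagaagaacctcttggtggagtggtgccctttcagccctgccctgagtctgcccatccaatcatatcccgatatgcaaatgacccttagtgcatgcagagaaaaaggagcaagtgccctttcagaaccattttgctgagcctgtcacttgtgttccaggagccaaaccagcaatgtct
Aldh1a1: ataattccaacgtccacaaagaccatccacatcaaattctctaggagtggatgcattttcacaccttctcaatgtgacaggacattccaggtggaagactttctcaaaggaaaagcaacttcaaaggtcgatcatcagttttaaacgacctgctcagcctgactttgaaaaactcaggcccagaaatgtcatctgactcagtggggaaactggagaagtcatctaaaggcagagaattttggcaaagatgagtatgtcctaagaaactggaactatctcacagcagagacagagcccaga
The Aldh1a7 window holds GTTAAT beginning 150 bases and TATAAA beginning 244 bases before the start, and the Aldh1a1 window holds none of the motifs. They were identical at 171 of 262 aligned positions (65.3%). Of 10 genes that fell and had a promoter window, 4 held GTTAAT in at least 1 window, 3 held AGGTCA, 2 held TATAAA, 2 held GCGTG and 0 held TGACNNNGC. Of 37 genes that did not pass and had one, 7 held GTTAAT, 10 AGGTCA, 7 TATAAA, 7 GCGTG and 2 TGACNNNGC. Over all 32851 windows of the RefSeq table the shares were 7.10% for GTTAAT, 16.3% for AGGTCA, 13.6% for TATAAA, 32.4% for GCGTG and 12.4% for TGACNNNGC, counting both strands. A match says only that these letters are present.

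Aldh2, the mitochondrial enzyme that clears acetaldehyde, had mean scores of −1.58, −1.80 and −1.56 on the Cy5 arrays and −1.99 in the Cy3 profile. The effect of −1.80 ± 0.23 (SE; limma, adjusted p = 0.00807) again rested on 1 of 2 features, which fell to −3.42 while the other stood at −0.19. Aldh1l2, the mitochondrial formyltetrahydrofolate dehydrogenase, had −1.07, −0.91 and −0.88 on the Cy5 arrays and −0.86 in the Cy3 profile. Its effect of −0.91 ± 0.20 (SE; limma, adjusted p = 0.0486) was the smallest fall, none of its 3 features passed singly, and the call was lost without any 1 of the 3 arrays (limma, adjusted p = 0.1002 to 0.102). Its cytosolic counterpart Aldh1l1 had an effect of −0.80 and did not pass (limma, adjusted p = 0.0744).

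The 2 rises were both ALDH genes. Aldh3b3, of a group whose mouse enzymes oxidise lipid aldehydes at membranes, had scores of 1.48, 1.93 and 1.37 on the Cy5 arrays and 2.17 in the Cy3 profile, an effect of 1.86 ± 0.33 (SE; limma, adjusted p = 0.0246). Without Cy5 replicate 1 the call was lost (limma, adjusted p = 0.0588). Its neighbours on chromosome 19, Aldh3b1 and Aldh3b2, had effects of −1.03 and −0.13 and did not pass. Aldh7a1, which acts in lysine breakdown, had 0.77, 0.94 and 0.93 on the Cy5 arrays and 1.21 in the Cy3 profile, an effect of 1.03 ± 0.21 (SE; limma, adjusted p = 0.0370). Neither of its 2 features, at 0.60 and 1.47, passed singly, and the call was lost without any 1 of the 3 arrays (limma, adjusted p = 0.0701 to 0.0942).

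Of the ALDH genes of amino acid and carnitine metabolism, none other passed. Aldh9a1, of carnitine synthesis, and the mitochondrial Aldh1b1 had effects of −0.98 and −0.94 with all scores below 0 (limma, adjusted p = 0.0571 and 0.0651), and 1 of the 2 Aldh9a1 features fell singly, to −1.32. Aldh6a1, of valine breakdown, and Aldh16a1 had effects of −0.52 and −0.38. Aldh8a1, Aldh18a1 of proline synthesis, Aldh4a1 of proline breakdown and Aldh5a1 of GABA breakdown had positive effects of 0.88, 0.78, 0.57 and 0.42, the last with its orientations on opposite sides of 0.

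Several features of a gene often gave different values. Of the 61 genes, 21 had more than 1 feature, and the median distance between the lowest and the highest feature effect was 0.35. Tested singly, 18 member features fell and 1 rose, against 7.66% of 41230 features that passed in either direction. Of the 6 passing genes with several features, Ugt1a6b and Ces2b passed in all of them. No gene had features that passed in both directions, and Aldh9a1 and Ugt2a1 had a feature that fell although the gene mean did not pass.

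**Figure D4:**
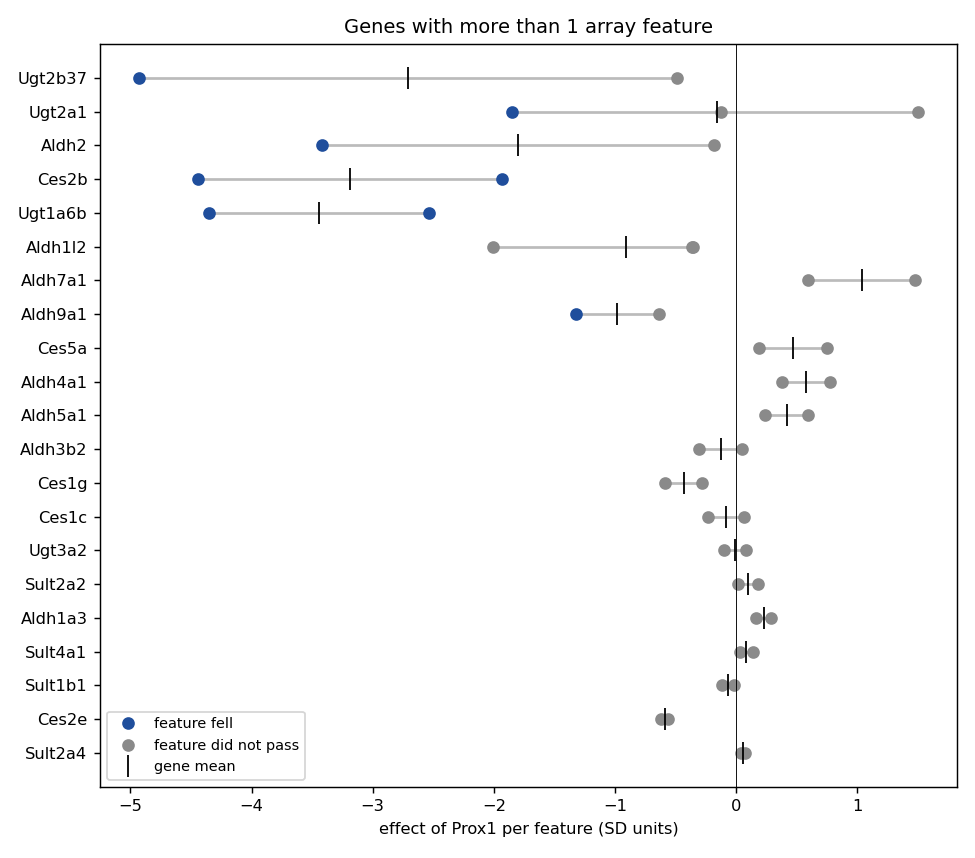
Effect of each feature (points, SD units) for the 21 genes with more than 1 feature, ordered by the distance between the features, with the gene mean as a vertical tick. Blue points fell singly and grey points did not pass. The features of Ugt2b37, Ugt2a1 and Aldh2 lie more than 3 SD units apart, and those of Sult2a4 nearly coincide.

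The orientations differed for many members. With dye orientation as a fixed term in limma, the difference between orientations passed for 24 of 61 members (39.3%), close to the 39.1% of all features, and for 7 of the 15 that fell. In the same model 28 members fell and 8 rose, against 19.7% and 25.3% of all features, 45% in all. The Cy5 arrays all had one sign and the Cy3 profile the other in 10 of the 61 members and 34% of all features. That model takes its spread from the 3 arrays of one orientation alone. When each orientation was instead averaged to 1 replicate, limma called 0 of 61 members and 0 of 28617 features. The smallest adjusted p among members was then 0.0903, and 21 members and 3975 features had an unadjusted p under 0.05.

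Genes that supply or undo these conjugations, or share substrates with the families, were taken from 7 lists of 120 genes in all, of which 112 were measured. The lists were chosen with earlier results of these data known. Their counts therefore describe the chosen genes and are not independent support for a fall of whole pathways. Across the lists 28 genes fell and 1 rose by the same limma model, and the median effect was −0.20, against 5.03% of all features that fell, 3.38% that rose and a median of 0.04. Leaving out 1 Cy5 array at a time cut the falls to 15 without replicate 1, 16 without replicate 2 and 17 without replicate 3, each with 0 rises. Sulfate supply and sulfate ester breakdown had 5 falls among 13 measured genes and a median of −0.65. That list also holds the protein sulfotransferases Tpst1 and Tpst2, which do neither. Slc26a2, a sulfate importer, had scores of −3.11, −3.51 and −3.32 on the Cy5 arrays and −2.45 in the Cy3 profile, an effect of −2.91 ± 0.30 (SE; limma, adjusted p = 0.00422). Papss2, which makes PAPS, fell to −1.11, and Arsb, Tpst2 and Sumf2 fell to −1.22, −1.17 and −0.98. The UDP-glucuronate list had 1 fall among 9 genes, Pgm1 at −0.92, and a median of −0.27. Ugdh, which makes UDP-glucuronate, had an effect of −1.07 that did not pass.

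Alcohol and aldehyde enzymes outside the ALDH family had 6 falls among 18 measured genes and a median of −0.42. The reductases Akr1c12, Cbr3 and Akr1c13 fell to −3.79, −2.95 and −2.86, and catalase (Cat) fell to −1.76. Akr1c14 and Akr7a5 fell to −1.47 and −1.11. Adh1, the main liver alcohol dehydrogenase, had an effect of −0.06 and did not pass. A list of other esterases, amidases and related hydrolases had 4 falls among 19 genes and a median of −0.01. The falls were Faah at −2.35, Pon3 at −2.17, Bphl at −1.53 and Fahd1 at −1.13. A list of other conjugating and related detoxifying enzymes had 3 falls and 1 rise among 14 genes. The arsenic methyltransferase As3mt fell to −2.48, and the falls of the quinone reductase Nqo1, to −1.67, and the epoxide hydrolase Ephx2, to −1.24, were of enzymes that do not conjugate. The nicotinamide methyltransferase Nnmt rose to 2.03 (limma, adjusted p = 0.0462), a call lost without any 1 of the Cy5 arrays (limma, adjusted p = 0.0568 to 0.0856), with median centring (0.0523) and in the test of single features (0.0513).

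Retinoid handling, which includes the substrates of the Aldh1a enzymes, had 4 falls among 24 measured genes and a median of −0.15. Rbp2, a cellular retinol-binding protein, had mean scores of −5.20, −5.30 and −5.45 on the Cy5 arrays and −5.62 in the Cy3 profile, an effect of −5.46 ± 0.22 (SE; limma, adjusted p = 0.000331). Rbp4, the retinol carrier of plasma, fell to −3.42, the retinoic acid receptor Rara to −2.46 and the retinol dehydrogenase Rdh1 to −1.28. Sensors and regulators known for the enzymes had 5 falls among 16 genes and a median of −0.23. Hnf4a fell to −2.96, the bile acid receptor Nr1h4 to −2.90, the oxysterol receptor Nr1h3 to −2.70, Foxa3 to −1.67 and the dioxin receptor Ahr to −1.40. The drug sensors Nr1i2 (PXR) and Nr1i3 (CAR) had effects of 0.28 and 0.25 and did not pass.

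**Figure D5:**
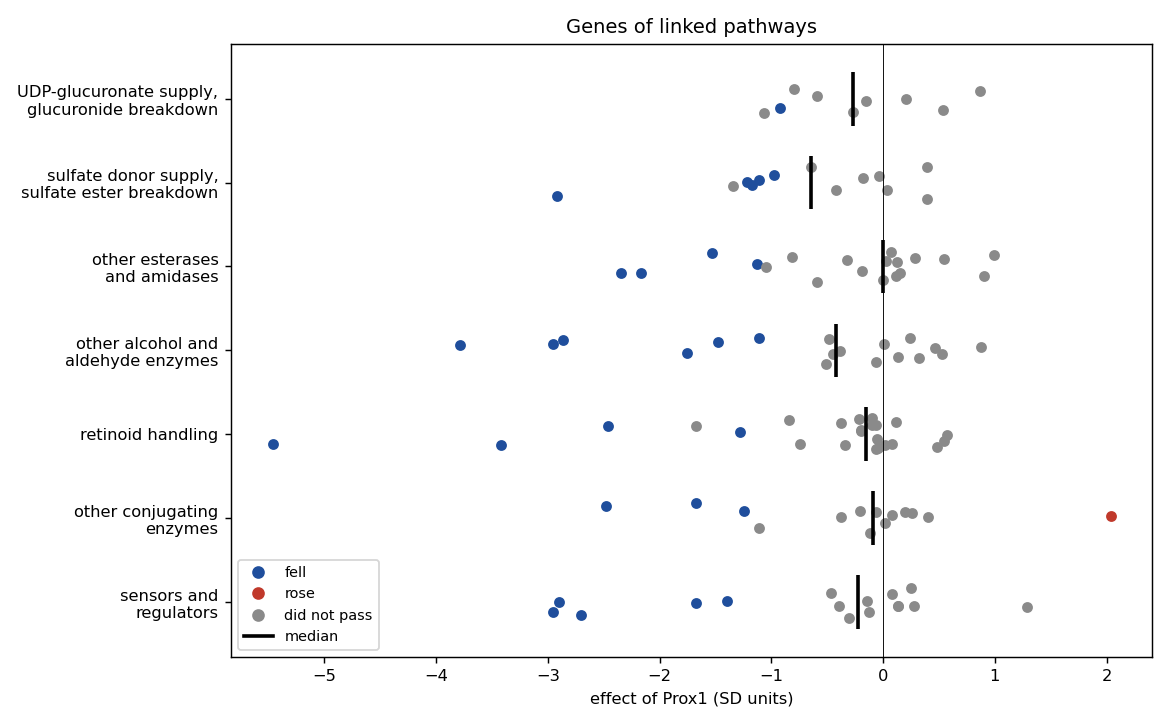
Effect of each measured gene (points, SD units) in the 7 lists of linked genes, with the list median as a black tick. Blue points fell, the red point rose and grey points did not pass. Each list has points near 0, and the leftmost is Rbp2 at −5.46 among the retinoid genes.

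Markers were read as scores only, since signal intensities were not analysed here and the absence of a marker could not be judged. Of 10 hepatoblast and hepatocyte markers, all measured, 4 fell (Trf to −5.71, Alb to −5.17, Krt8 to −3.55 and Hnf4a to −2.96), 6 did not pass, and the median effect was −1.68. The 6 were Krt18 at −2.32, Apoa1 at −1.04, Ttr at −0.34, Tat at −0.05, Afp at 0.33 and Dlk1 at 0.42. With a fixed dye term 7 of the 10 fell and 2, Afp and Dlk1, rose. Ttr, counted there as a fall, and Afp and Dlk1 had opposite signs in the orientations. Their means over the Cy5 arrays were 0.26, 0.755 and 1.11, against −1.03, −0.17 and −0.39 in the Cy3 profile. Of 5 measured cholangiocyte markers Krt19 fell, to −3.47, and the median was −0.05. The median was −0.24 over 7 stellate and fibroblast markers, 0.11 over 5 measured macrophage markers and 0.06 over 6 endothelial markers. Of these 18, 0 passed by limma, 2 had an unadjusted p under 0.05, and with a fixed dye term 4 fell and 2 rose. Among all features 8.41% passed, and 45% with the fixed dye term, so 0 of 18 is near the share over all features. Fewer cells of a type and less RNA per cell cannot be told apart in these bulk samples, and the part of the hepatocyte markers' fall in the enzymes' falls was not tested.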

How the data were processed

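RNA of Prox1 and empty vector MMH cells was compared on 6 two-colour arrays. Per the labels' protocols, DNase-treated RNA was transcribed and the cDNA amplified by PCR, halted short of saturation, before labelling, and such amplification can distort ratios. The authors deposited 1 score per feature and array, a signed ratio whose SD was 1 in each of the 6 columns. For the scanner, background correction, normalization, log base and direction, the sources used here give no statement. Signal over background is therefore unknown, and precision is limited by how few arrays there are. The median score was 0.060, 0.055 and 0.058 on the arrays with Prox1 RNA in Cy5 and −0.020 in the other columns, and values were used as deposited.

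Of 44290 features listed, 41230 had a value. Names came from the platform annotation of these features, updated by gene identifier: 31700 had 1 symbol, 47 several and 9483 none. Per array, a mean was taken over the features of each of 19087 genes with 1 symbol, and with the remaining features kept single 28617 were tested. The columns with Prox1 RNA in Cy3 were identical and entered once. The model was limma 3.58.1 in R 4.3.3 with an intercept and the dye orientation as a random block (correlation 0.793 by duplicateCorrelation, 3 residual degrees of freedom), moderated by eBayes. P-values were adjusted over all features by the Benjamini-Hochberg method, with a threshold of 0.05. The script was tested on simulated data. Fits without 1 array kept the correlation of all 4 profiles, since it could not be estimated from 3. Alternatives were a fixed dye term, no dye term, leaving out profiles, orientations as replicates, median centring and single features.

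The members and the gene lists were chosen with earlier results of these data known. Genes described in every profile were those that passed, the highest and lowest of each family, all Aldh1a members and a few named enzymes (Aldh2, Ugt1a1, Ugt1a6a, Ugt1a6b, Sult1a1, Sult2b1, Ces1d and Ces2a), of which Ugt1a6a had no feature with its symbol alone. Values of other genes in the text were added with their values known. From each linked list, genes that passed were named. Promoters came from RefSeq (GRCm38.p6) and were aligned with Biopython 1.88. The array files name no genome build, so genes of a cluster are given in RefSeq order. Base positions are given only for the promoter windows shown.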

Additional observations from a re-analysis of the deposited data

Results flagged for a closer look

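In 10 of the 61 genes the 3 Cy5 arrays (Prox1 in Cy5) all had one sign and the Cy3 profile (Prox1 in Cy3) the other, which happened in 34% of all features. The widest gap was in Sult6b1, with a mean of 2.44 over the Cy5 arrays and −1.13 in the Cy3 profile. Sult3a2 stood at −1.57 on the Cy5 arrays and 1.57 in the Cy3 profile, so its effect near 0 averages opposite values, and its neighbour Sult3a1 stood at 0.19 on the Cy5 arrays and −0.13 in the Cy3 profile. Aldh5a1, of GABA breakdown, stood at 1.60 on the Cy5 arrays and −0.96 in the Cy3 profile. Smaller gaps were found for Ces1e (0.40 on the Cy5 arrays and −0.47 in the Cy3 profile), Ugt2a1 (−0.53 and 0.27), Ugt2b5 (−0.65 and 0.0136), Ugt2b34 (−0.13 and 0.0532), Aldh1a3 (0.48 and −0.0684) and Aldh3b2 (−0.39 and 0.18). The difference between orientations passed for 8 of these 10 genes in limma with a fixed dye term, whose spread comes from the 3 Cy5 arrays alone; Ugt2b34 and Sult3a1 did not pass. Dye, RNA isolation and array cannot be told apart between the orientations.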

How the results depend on the processing

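Main counts over the 61 genes were 15 falls and 2 rises. All 17 genes kept their direction in every alternative that gave a value. With a fixed dye term all 17 passed and 28 members fell and 8 rose (CES falls 6, ALDH falls 12, ALDH rises 5, linked genes 51 falls and 17 rises, all features 5647 and 7232). Without dye term and block all 17 passed, with 4 rises in all, 8 ALDH falls, 8 linked rises, and 3446 falls and 3423 rises over all features. Without the Cy3 profile all 17 passed, with 31 falls and 10 rises (UGT falls 7, CES falls 5, ALDH falls 13, ALDH rises 6, linked genes 55 and 27, all features 6872 and 9909), and Ces1e changed from −0.0047 to 0.40 (limma, adjusted p = 0.0120). Leaving out 1 Cy5 array at a time gave 12 to 14 falls and 0 to 1 rises in all, both rises being ALDH genes (0 to 1), 2 to 4 UGT falls, 15 to 17 linked falls with 0 rises, and 845 to 935 falls and 385 to 453 rises over all features. Of the 17 genes, 12 passed without replicate 1, 15 without replicate 2 and 13 without replicate 3. The genes lost were Ugt2b37, Ugt1a1, Aldh1l2, Aldh7a1 and Aldh3b3 without replicate 1, Aldh1l2 and Aldh7a1 without replicate 2, and Ugt2b37, Ugt1a1, Aldh1l2 and Aldh7a1 without replicate 3; each such fit has fewer arrays. With the orientations as 2 replicates every count was 0 (members, each family, linked genes and all features), and the adjusted p of the 17 genes ranged from 0.0903 to 0.266. With columns centred on their median 16 of 17 passed, Aldh1l2 was lost (limma, adjusted p = 0.0503), and the linked rise, Nnmt, was lost too, which left 0. With every feature tested singly 18 member features fell and 1 rose, an ALDH feature, and the 11 passing genes with 1 feature all passed. Aldh1a1 moved to −0.40 and Sult6b1 to 2.44 without the Cy3 profile. Every score already compares both RNAs on 1 array. Arrays could not be paired between the orientations, which share no replicate numbers. Unless stated, the cause of a change was not tested.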
